A study of Mus musculus with 11 samples.

Results

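Collagen chains are the gene products that wind together, 3 to a molecule, into the collagens of the extracellular matrix. The genes described here are all rows of both expression tables whose symbol has the form of a collagen chain and whose mean reached 10 normalized counts in the table. That left 38 of 44 collagen symbols in the germline table and 37 of 44 in the inducible table, of 20475 genes listed in each, and 35 chains passed in both. The fibrillar chains numbered 10 and 11 in the 2 tables, the basement membrane chains 7 and 7, and the remaining chains 21 and 19. In the germline table Col4a3, Col5a3, Col6a4, Col6a5, Col6a6 and Col28a1 stayed under the minimum. In the inducible table Col4a3, Col6a5, Col6a6, Col8a1, Col10a1, Col17a1 and Col28a1 did.

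RNA came from mouse forebrain at embryonic day 12.5, which the labels call neural cells and the methods cortical cells. KIF20A is a kinesin that acts in cytokinesis, and the study asked what its loss does to dividing neural progenitors. The germline comparison set 3 wild-type libraries against 3 libraries from knockout embryos that carried a knockout-first allele of Kif20a, in which a LacZ and neomycin cassette interrupts the gene. That line came from 1 embryonic stem cell clone, whose chimeras were bred with C57BL/6J mice. The inducible comparison set 2 libraries labelled wild type against 3 libraries of the inducible knockout. In that knockout a floxed Kif20a is deleted by Nestin-CreERT2, a tamoxifen-dependent Cre driven in neural stem and progenitor cells, and tamoxifen was given to the pregnant mothers at E9.5 and E10.5. The study describes the wild-type and mutant embryos of each comparison as littermates. In its other experiments with the inducible line the controls were floxed littermates without the transgene. The labels do not say which alleles these control libraries carried, whether embryos were pooled or whether replicates came from separate litters, so p-values measure the spread between these libraries only.

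Chains form a triple helix in the endoplasmic reticulum after hydroxylation of their prolines and lysines, and fibrillar collagens are then secreted, trimmed and packed into cross-linked fibrils. Type IV collagen forms the sheet of basement membranes instead, while other collagens coat fibrils, bead into microfilaments or span the cell membrane. In the embryonic head, mesenchyme and meninges are rich in collagens I, III and VI, vessels and the pial surface in collagen IV, and type II collagen is made by cartilage and also by neuroepithelium.

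The promoters of chains that went different ways in the germline libraries are shown first. Each is the stretch of 120 bases before the RefSeq start in GRCm38.p6, read 5′ to 3′ along the strand of the gene. Capitals mark a TATA box (TATAAA). They also mark a CCAAT box, the 5 letters of its name, and a GC box (GGGCGG), and each of the 3 was searched on both strands. Col3a1, Col1a2 and Col6a3 were nearly lost in 1 knockout library, Col11a1 was higher in all 3, and Col4a5 and Col4a6 are a head-to-head pair.
Col3a1, chr1:45311418-45311537, plus strand: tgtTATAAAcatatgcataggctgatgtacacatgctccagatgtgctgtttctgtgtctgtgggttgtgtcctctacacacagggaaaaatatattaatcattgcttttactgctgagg
Col1a2, chr6:4505498-4505617, plus strand: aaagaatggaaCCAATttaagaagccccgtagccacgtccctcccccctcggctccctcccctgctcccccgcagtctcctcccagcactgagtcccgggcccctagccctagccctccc
Col6a3, chr1:90843972-90844091, minus strand: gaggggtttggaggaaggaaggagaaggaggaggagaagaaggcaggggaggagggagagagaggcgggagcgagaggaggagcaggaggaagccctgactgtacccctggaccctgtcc
Col11a1, chr3:114030420-114030539, plus strand: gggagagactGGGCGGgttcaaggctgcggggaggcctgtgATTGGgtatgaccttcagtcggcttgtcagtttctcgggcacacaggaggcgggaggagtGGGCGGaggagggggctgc
Col4a6, chrX:141474077-141474196, minus strand: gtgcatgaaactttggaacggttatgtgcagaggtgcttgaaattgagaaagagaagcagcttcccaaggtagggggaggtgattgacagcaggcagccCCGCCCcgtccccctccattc
Col4a5, chrX:141475299-141475418, plus strand: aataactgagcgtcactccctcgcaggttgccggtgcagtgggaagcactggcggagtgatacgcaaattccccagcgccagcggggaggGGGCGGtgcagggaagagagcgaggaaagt

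The promoter table held 35 of the collagen symbols in 38 windows. A TATA box lay in 3 of the 38 windows, against 6.34% of all 32851 windows in the table. A CCAAT box lay in 6 of 38, against 21.3%, and a GC box in 18 of 38, against 26.5%. Col4a1 and Col4a2 are read in opposite directions from starts on chromosome 8 that share 22 bases. Col4a6 and Col4a5 also point away from each other, with 1342 bases between their starts on the X chromosome. A letter match describes the window and shows no binding.

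Kif20a itself was at 2477 ± 194 normalized counts in the germline wild-type libraries and 429 ± 67.1 in the knockouts (SD, n = 3 each), which is 17.3% of wild type. In the inducible comparison it was at 4802 ± 59.4 (SD, n = 2) and 2964 ± 143 (SD, n = 3), or 61.7%. Total normalized counts per library were 13048716 to 15551274 in the germline table and 24118520 to 24497307 in the inducible table. On marker lists, which were chosen with earlier results known, germline knockout replicates 1 and 2 stood apart in opposite directions. The 16 markers of cranial mesenchyme and meninges summed to 621 normalized counts in replicate 2 and to 10667 and 5176 in replicates 1 and 3. The wild-type libraries ran from 2560 to 4207. The 12 neural markers went the other way, with 87973 in replicate 2, 34361 and 41200 in replicates 1 and 3, and 48233 to 56278 in the wild type.

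Collagen chains took a small share of each library. All 44 symbols together made 0.0887%, 0.0945% and 0.147% of normalized counts in the germline wild-type libraries, and 0.276%, 0.0694% and 0.170% in knockout replicates 1, 2 and 3. Knockout replicate 1 was thus the highest and replicate 2 the lowest of the 6. In the inducible table the share was 0.218% and 0.156% for the controls, and the knockouts lay between them at 0.164%, 0.181% and 0.186%.

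Levels can be ordered between chains only per length, here as normalized counts per kilobase of exon, scaled to 1000000 in each library. The highest in the germline wild type were Col3a1 at 23.8 ± 9.79, Col4a1 at 21.1 ± 10.8 and Col2a1 at 19.4 ± 2.31 (SD, n = 3). Col4a2 at 13.9 ± 7.21 and Col18a1 at 12.4 ± 4.09 came next. Each of these 5 lay within the SDs of its neighbour in this order, while Col2a1 and Col18a1 were further apart than theirs. Col1a1, at 7.24 ± 1.01, followed, and the leading chains outside the fibrillar and basement membrane classes were Col26a1 at 3.35 ± 0.748, Col23a1 at 2.64 ± 0.856 and Col9a3 at 1.54 ± 0.482. In the inducible wild type the same 5 chains led, with Col4a1 at 42.4 ± 11.3, Col3a1 at 36.5 ± 14.5, Col2a1 at 34.4 ± 2.93, Col4a2 at 27.8 ± 8.60 and Col18a1 at 25.4 ± 1.03 (SD, n = 2). The 2 tables were normalized apart, so these levels are not compared between them.

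**Figure D1:**
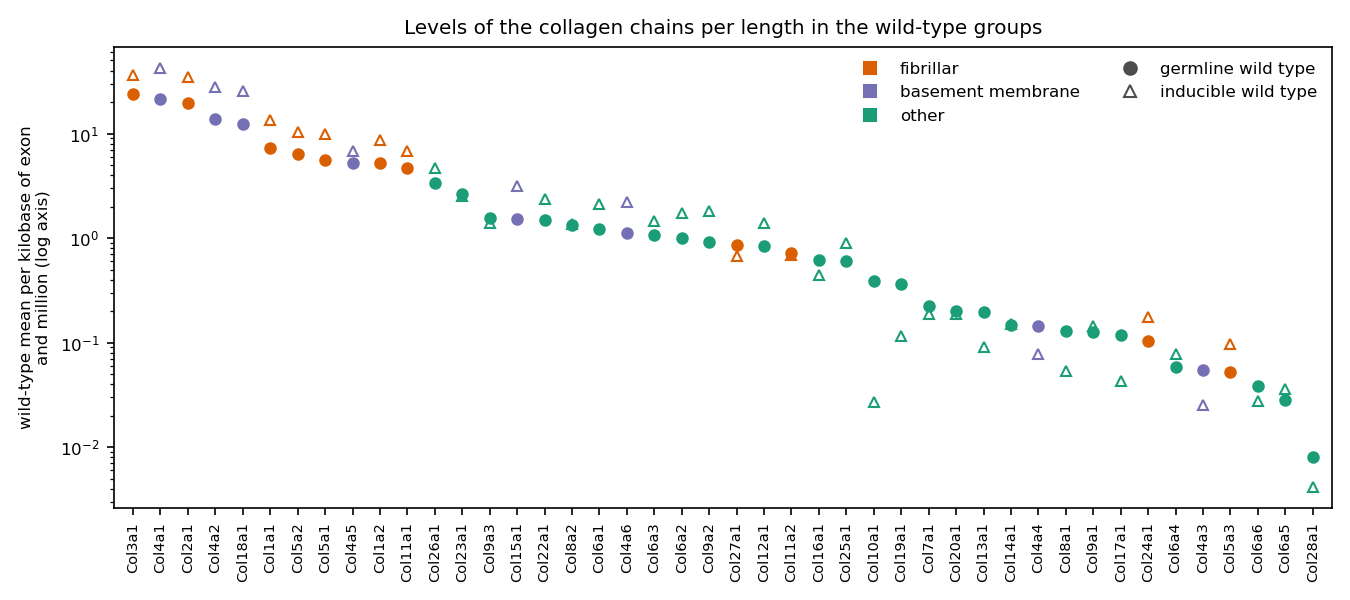
Wild-type level of each of the 44 collagen chains in normalized counts per kilobase of exon and 1000000 on a log axis, ordered by the germline mean, with filled circles for the germline and open triangles for the inducible wild-type mean and colours for the 3 classes. Col3a1, Col4a1, Col2a1, Col4a2 and Col18a1 lead in both groups, and most chains outside the fibrillar and basement membrane classes lie under 3 units.

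In the germline comparison 4 collagen chains were higher in the knockouts and none was lower, with a call set at 1.5-fold and an unadjusted P of 0.05. These were the fibrillar chains Col2a1, Col11a1 and Col24a1 and the fibril-coating chain Col12a1. They make up 4 of the 38 chains tested, where 2.07% of all 13938 genes were called higher and 0.667% lower. The same 4 were the chains at an unadjusted P of at most 0.05, which 5.39% of all genes reached. They were also the only chains whose groups did not overlap, with the knockouts all higher, as in 5.9% of all genes, and no chain was lower in every knockout, as in 7.55% of all genes. The remaining 34 chains overlapped. No chain passed after adjustment over all genes, and each of the 4 had an adjusted p of 0.779 (limma, Benjamini-Hochberg). The median log2 fold change was 0.30 over the 38 chains and -0.04 over all genes tested. It was 0.43 in the fibrillar class, 0.09 in the basement membrane class and 0.14 among the others.

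The 3 knockout libraries differed among themselves. Against the wild-type mean, the median chain stood at log2 differences of 1.17, -0.59 and 0.57 in knockout replicates 1, 2 and 3, where the median gene stood at -0.05, 0.02 and -0.03. Replicate 1 was the highest of the 6 libraries for 25 of 38 chains, against 17.2% of all genes tested. Replicate 2 was the lowest of the 6 for 18 chains, against 30.5% of all genes, and the highest for 9, against 33.8%. In 18 chains replicate 2 lay at least 1.5-fold under the wild-type mean while replicates 1 and 3 lay above it. How many of all genes do so was not counted. Replicate 2 alone lay that far under the mean in 19 of 38 chains, against 17.7% of all genes. In 31 chains replicates 1 and 3 both lay above that mean, as they did for 30.2% of all genes. In bulk RNA, fewer cells of a type and less RNA per cell cannot be told apart.

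**Figure D2:**
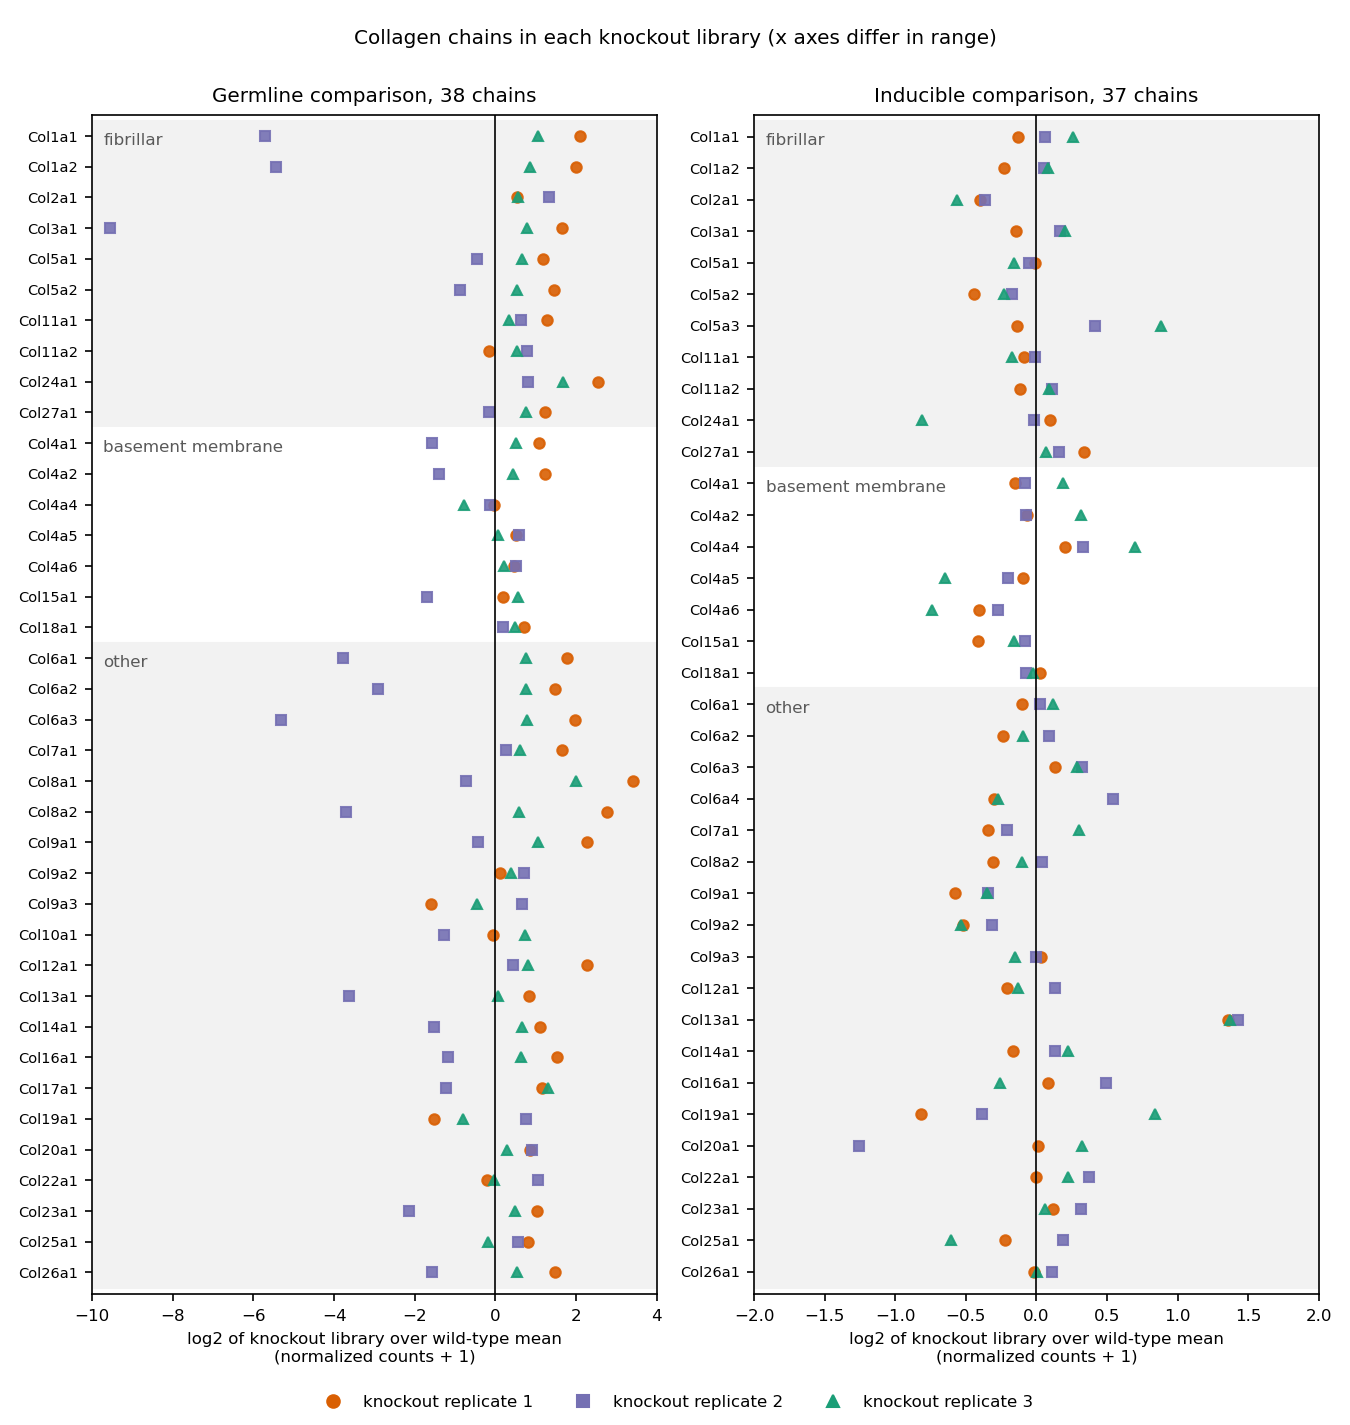
Each knockout library's log2 difference from the wild-type mean, on normalized counts plus 1, for every collagen chain tested, by class, with 1 marker per knockout replicate and a separate x range for each comparison. In the germline panel replicate 2 lies far to the left for Col3a1, Col1a1, Col1a2 and the Col6 chains while replicates 1 and 3 lie to the right; in the inducible panel only Col13a1 lies beyond 1 on the log2 scale in all 3 libraries.

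The chains of the interstitial fibrils showed this most. Col1a1, the main chain of type I collagen, was at 593, 610 and 765 in the wild type (normalized counts, as for all values by library) and at 2801, 11.5 and 1361 in knockout replicates 1, 2 and 3. Col1a2, its partner, was at 807, 701 and 1114 in the wild type and at 3449, 18.7 and 1543 in the knockouts. In both chains 2 knockouts lay above every wild-type library and 1 lay far below. Col3a1, which forms type III collagen and mixes into type I fibrils, was at 2387, 1838 and 4037 in the wild type and at 8253, 2.46 and 4489 in the knockouts. The single low value is at the level where counts carry no order, taken here as 3. The fitted log2 fold changes were -0.85 for Col1a1, -0.86 for Col1a2 and -2.37 for Col3a1, with standard errors of 1.85, 1.75 and 2.72. None passed, with unadjusted P of 0.66, 0.637 and 0.413 in limma.

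Type V collagen, which sets the width of type I fibrils, was also highest in knockout replicates 1 and 3, over a narrower range. Col5a1 was at 440, 654 and 873 in the wild type and at 1442, 462 and 1004 in the knockouts, with a log2 fold change of 0.47 (SE 0.44). Col5a2 was at 722, 742 and 1076 in the wild type and at 2294, 456 and 1200 in the knockouts, with a log2 fold change of 0.37 (SE 0.54). Replicate 2 lay inside the wild-type range for Col5a1 and below it for Col5a2, not near 0 as for Col3a1.

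The chains of the type II and XI fibrils behaved differently. Col2a1, the chain of type II collagen, was at 1427, 1583 and 1829 in the wild type and at 2338, 4031 and 2384 in the knockouts. All 3 knockouts lay above all 3 controls, and replicate 2, nearly empty of Col3a1, held the most Col2a1. The difference was 1.76-fold (log2 0.81, SE 0.23, 95% interval 0.27 to 1.36, unadjusted P = 0.00972, adjusted p = 0.779, limma with Benjamini-Hochberg). By exact permutation of the libraries p was 0.1, and 3 against 3 allows no smaller value. The call held without any one library except knockout replicate 2, without which the fold was 1.47 (unadjusted P = 0.0032, limma).

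Col11a1, which joins type II fibrils and limits their width, was at 462, 663 and 755 in the wild type and at 1493, 947 and 778 in the knockouts. The lowest knockout lay just above the highest control. The difference was 1.68-fold (log2 0.75, SE 0.29, unadjusted P = 0.034, limma). The call was lost without wild-type replicate 1, wild-type replicate 2 or knockout replicate 1, where the log2 fold change was 0.54, 0.80 and 0.48 and the unadjusted P 0.116, 0.0609 and 0.0995. Col11a2, its type XI partner, was at 57.3, 70.3 and 78.4 in the wild type and at 61.3, 119 and 98.5 in the knockouts. These groups overlapped, and the log2 fold change of 0.39 (SE 0.31) did not pass.

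Col24a1, a minor fibrillar chain, was at 8.03, 15.4 and 8.95 in the wild type and at 65.7, 18.9 and 35.2 in the knockouts. It had the largest called difference, at 3.19-fold (log2 1.67, SE 0.55, unadjusted P = 0.0179, limma), but from the lowest counts of the 4. Without wild-type replicate 1, wild-type replicate 3 or knockout replicate 1 its unadjusted P was 0.0599, 0.0527 and 0.0654, with log2 fold changes of 1.51, 1.58 and 1.24. Col27a1, the remaining fibrillar chain tested, had a log2 fold change of 0.61 (SE 0.37) and did not pass.

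**Figure D3:**
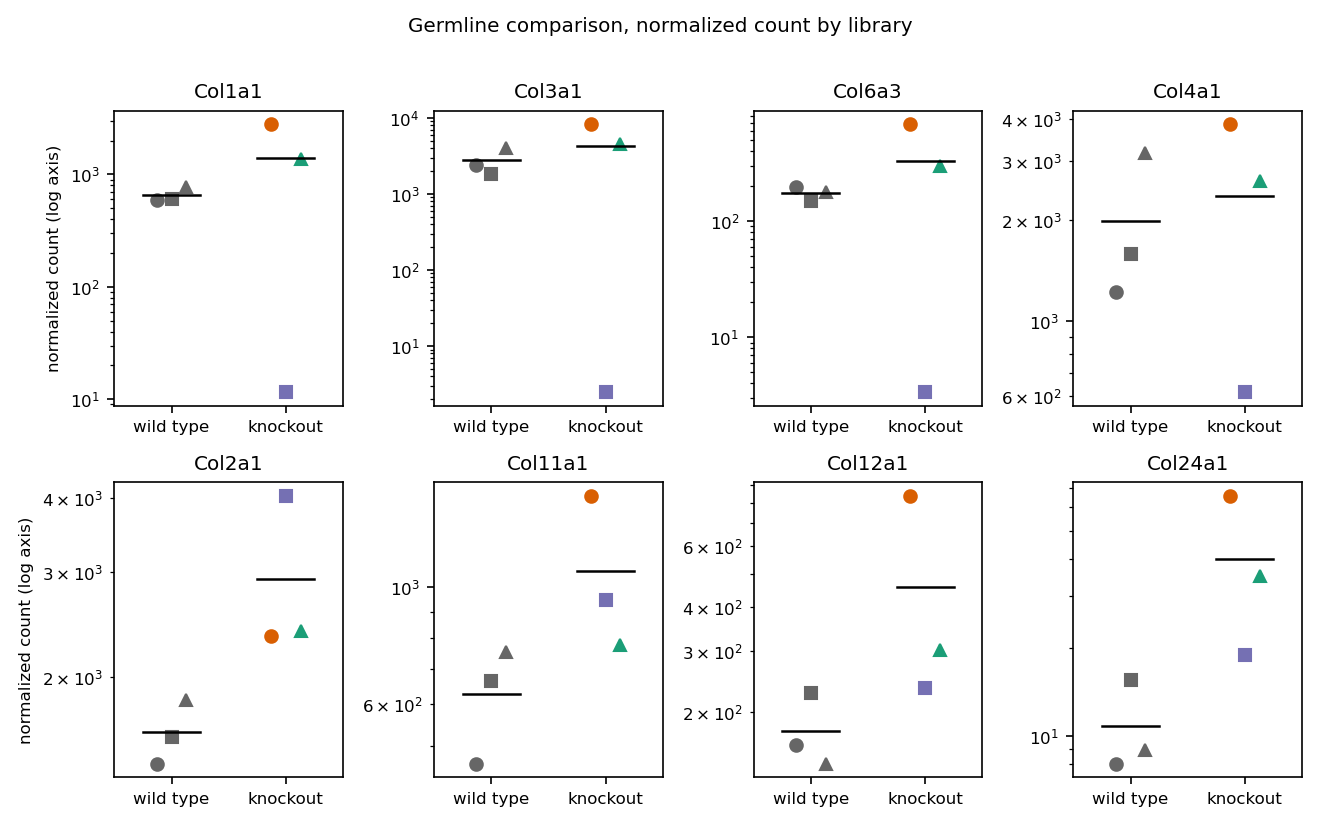
Normalized counts of 8 chains in the 6 germline libraries on log axes, with circles, squares and triangles for replicates 1, 2 and 3 and a line at each group's mean (n = 3). Knockout replicate 2 is the lowest library for Col1a1, Col3a1, Col6a3 and Col4a1, and all 3 knockouts lie above the wild type for Col2a1, Col11a1, Col12a1 and Col24a1.

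None of the 7 basement membrane chains passed in the germline comparison, and 0 of them reached an unadjusted P of 0.05 in limma. Col4a1, 1 of the pair that makes the common form of type IV collagen, was at 1226, 1589 and 3167 in the wild type and at 3858, 614 and 2609 in the knockouts. Its partner Col4a2 was at 749, 1037 and 2021 in the wild type and at 2742, 440 and 1575 in the knockouts. The wild-type libraries themselves differed by over 2.5-fold in both, and the fitted log2 fold changes were 0.001 (SE 0.69) and 0.09 (SE 0.68). Col4a1 came out at -0.01 when values were divided by exon length.

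Col4a5 and Col4a6, the X-linked pair, were not low in replicate 2. Col4a5 was at 390, 488 and 582 in the wild type and at 687, 723 and 501 in the knockouts. Col4a6 was at 116, 108 and 143 in the wild type and at 166, 174 and 142 in the knockouts. In both, replicate 2 was the highest library and replicate 3 lay inside the wild-type range. The log2 fold changes were 0.39 (SE 0.21, unadjusted P = 0.11) and 0.40 (SE 0.21, unadjusted P = 0.0964) in limma. Col18a1, whose C-terminal fragment is endostatin, was at 832, 1134 and 1632 in the wild type and at 1896, 1326 and 1623 in the knockouts. Its groups overlapped, with a log2 fold change of 0.47 (SE 0.26).

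Among the other chains, type VI collagen, which forms beaded microfilaments around cells, followed type I. Col6a1 was at 94.3, 50.1 and 75.8 in the wild type and at 247, 4.26 and 122 in the knockouts. Col6a2 was at 108, 95.2 and 144 in the wild type and at 317, 14.2 and 195 in the knockouts. Col6a3 was at 197, 149 and 179 in the wild type and at 685, 3.35 and 298 in the knockouts. In all 3 chains replicate 2 was the lowest library and replicates 1 and 3 the 2 highest. The fitted log2 fold changes of -0.41, -0.23 and -0.86 had standard errors of 1.32, 1.05 and 1.71.

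Col12a1, which attaches to the surface of type I fibrils, was the 1 called chain of this class. It was at 160, 227 and 141 in the wild type and at 837, 234 and 301 in the knockouts. Knockout replicate 2 lay just above the highest control and replicate 1 far above it. The difference was 2.25-fold (log2 1.17, SE 0.47, unadjusted P = 0.0414, limma). The call was lost without wild-type replicate 1, wild-type replicate 3 or knockout replicate 1, where the log2 fold change was 1.12, 1.03 and 0.62 and the unadjusted P 0.104, 0.111 and 0.0653.

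The type IX chains, which coat type II fibrils, did not keep in step. Col9a1 was at 12.0, 8.92 and 5.88 in the wild type and at 45.4, 6.17 and 19.1 in the knockouts. Col9a2 was at 40.2, 31.7 and 45.5 in the wild type and at 42.0, 64.4 and 51.2 in the knockouts. Col9a3 was at 110, 70.1 and 65.0 in the wild type and at 25.6, 126 and 57.3 in the knockouts. Replicate 2 was the highest library for Col9a2 and Col9a3, while replicate 1 was the highest for Col9a1 and the lowest for Col9a3. None of the 3 passed.

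Col26a1, an EMI-domain collagen, was at 249, 222 and 339 in the wild type and at 738, 88.4 and 385 in the knockouts. Col23a1, a collagen that spans the cell membrane, was at 190, 152 and 285 in the wild type and at 417, 45.0 and 285 in the knockouts. Col13a1, another membrane-spanning chain, was at 16.1, 5.65 and 15.9 in the wild type and at 21.1, 0 and 12.1 in the knockouts, all low counts. Replicate 2 was the lowest library for each of these. Over the whole class the fitted log2 fold changes ran from -0.91 for Col13a1 to 1.56 for Col8a1. In 3 chains, Col9a3, Col19a1 and Col22a1, replicate 2 lay above the wild-type mean and replicates 1 and 3 below it; these were picked out after their values were seen.

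Several other marker lists were low in replicate 2 as well, though not all. Replicate 2 was the lowest and replicate 1 the highest library for 16 and 15 of the 16 mesenchyme and meninges markers. Lum, a fibril-binding proteoglycan, was at 0.65 in replicate 2, and the mesenchymal factors Tbx18, Foxc2 and Twist2 were at 0. Replicate 2 was also the lowest library for 11 of 12 endothelial and 6 of 7 pericyte markers. The endothelial list summed to 899 there, against 1681 to 3327 in the wild type, 3750 in replicate 1 and 2720 in replicate 3. The pericyte list summed to 2059 in replicate 2, 4035 and 3136 in replicates 1 and 3, and 1974 to 3052 in the wild type, so its sum in replicate 2 lay inside the wild-type range. Of 10 surface epithelium markers replicate 2 was the lowest for 5, and their sum was 86.5, against 90.8 to 151 in the wild type, 527 in replicate 1 and 281 in replicate 3. Of 6 floor plate and diencephalon midline markers replicate 2 was the lowest for 4. Their sum was 560 there, against 719 to 1682 in the wild type, 1429 in replicate 1 and 1273 in replicate 3. None of the mesenchyme, endothelial, pericyte and floor plate lists had a called gene, and of the epithelial list Krt5 was called higher. Over all genes tested 2.07% were called higher and 0.667% lower. The 10 choroid plexus and cortical hem markers differed from these. Replicate 2 was the highest library for 6 of them and the lowest for 1, and their sum of 5858 there lay inside the wild-type range of 4914 to 8323. Of these 10 genes Rspo1, Rspo3 and Bmp6 were called higher and Ttr lower, against the same 2.07% and 0.667% of all genes. A positive log2 fold change was found for 8 of them, and the median was 0.58. Their part in the collagen values was not tested.

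Type II collagen was set beside cartilage markers in the same way. Matn1 and Acan, both defining genes of cartilage, stayed at or under 1.39 and 6.98 normalized counts in every germline library. Hapln1 was the largest of the 9 cartilage markers listed in the table. It was at 126, 79.9 and 296 in the wild type and at 1133, 19.6 and 339 in the knockouts. Hapln1 was lowest in knockout replicate 2, where Col2a1 was highest. In replicates 1 and 3 both Hapln1 and Col2a1 lay above every control. The list summed to 112 to 336 in the wild type and to 1212, 49.2 and 384 in knockout replicates 1, 2 and 3. The part of cartilage in the Col2a1 values was not tested.

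Left without knockout replicate 2, the germline comparison gave another picture. This fit was picked, with earlier results known, from those leaving out each library in turn. Replicate 2 was the lowest of the 6 libraries for 18 of the 38 chains, so leaving it out raises their fold changes by construction. Then 21 of 38 chains were called higher and 2 lower (Col9a3 and Col19a1), where 4.16% of all genes were called higher and 4.63% lower. The median log2 fold change over the chains was 0.86, against -0.04 over all genes, and 34 of 38 were positive. The fibrillar class had 8 of 10 chains called higher, the basement membrane class 1 of 7 and the others 12 of 21. Col1a1 was 2.99-fold, Col1a2 2.69-fold, Col3a1 2.33-fold and Col6a3 2.59-fold higher, with unadjusted P of 0.000379, 0.002, 0.00686 and 0.00261 in limma. No chain passed after adjustment, and the smallest adjusted p was 0.12 (limma, Benjamini-Hochberg). With that library left out, 14 of the 16 mesenchyme and meninges markers were also called higher, and their part in the collagen values was not tested.

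In the inducible comparison the collagen chains stayed near their controls. The Y-linked gene Kdm5d, given below, was expressed in every knockout and in neither control. Sex and genotype therefore cannot be told apart for any chain of this comparison, Col13a1 and Col2a1 included. Only Col13a1 was called higher and none lower, that is 1 of 37 chains, where 0.802% of all 14081 genes were called higher and 0.49% lower. Unadjusted P was at most 0.05 in 4 chains (Col2a1, Col4a6, Col9a2 and Col13a1), against 6.01% of all genes. The log2 fold change of the other 36 chains was under 0.5 in size. The median was -0.03 over the chains and -0.002 over all genes. It was -0.03 in the fibrillar class, -0.02 in the basement membrane class and -0.04 among the others. In 3 chains all knockouts lay above both controls (Col4a4, Col13a1 and Col27a1), as in 10.4% of all genes, and in 5 all lay below (Col2a1, Col4a5, Col4a6, Col9a1 and Col9a2), as in 12.2%.

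Col13a1 was at 7.87 and 12.7 normalized counts in the inducible controls and at 27.2, 28.6 and 27.6 in the knockouts. The 3 knockouts were close together and above both controls. The difference was 2.61-fold (log2 1.39, SE 0.30, unadjusted P = 0.00226, adjusted p = 0.648, limma with Benjamini-Hochberg), and by exact permutation p was 0.1, below which 2 against 3 cannot go. It was called without any one of the 5 libraries. Its mean lies under 50 normalized counts, so it was not tested with that minimum.

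Col2a1, higher in the germline knockouts, was at 5354 and 4762 in the inducible wild type and at 3821, 3922 and 3414 in the knockouts. The groups did not overlap, and the ratio of 0.735 (log2 -0.44, SE 0.08, 95% interval -0.63 to -0.26) was short of the 1.5-fold limit. Its unadjusted P was 0.000695 and its adjusted p 0.392 (limma, Benjamini-Hochberg). The choroid plexus and hem markers, with a positive median in the germline comparison, had a median log2 fold change of -0.50 here. Of these markers 0 of 10 were positive, and Rspo1 and Bmp6 were called lower, where 0.49% of all genes were. They summed to 8877 and 10293 in the controls and to 8396, 7910 and 4880 in the knockouts, and their part in the Col2a1 values was not tested. Col11a1 was at 1706 and 1499.5 in the wild type and at 1504, 1591 and 1418 in the knockouts, a log2 fold change of -0.09 (SE 0.08) with groups that overlapped. Col24a1 was at 32.5 and 33.0 in the wild type and at 35.1, 32.4 and 18.3 in the knockouts, so the knockouts spread to both sides of the controls.

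The interstitial fibrils that varied most in the germline knockouts did not separate the inducible groups. Col1a1 was at 2779 and 1521 in the wild type and at 1879, 2148 and 2461 in the knockouts. Col1a2 was at 3156 and 1971 in the wild type and at 2124, 2584 and 2636 in the knockouts. Col3a1 was at 9552 and 5365 in the wild type and at 6473, 8032 and 8229 in the knockouts. In each, all 3 knockouts lay between the 2 controls. The 95% intervals of the log2 fold changes were -0.48 to 0.61, -0.47 to 0.41 and -0.45 to 0.60. The mesenchyme and meninges markers summed to 5419 and 4446 in these controls and to 5364, 5565 and 5017 in the knockouts.

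The 2 inducible controls decided many small values. Wild-type replicate 1 was the highest library for 21 of the 37 chains and replicate 2 the lowest for 16. Without replicate 1 the median chain stood at 0.23 and without replicate 2 at -0.24 (log2). Col6a3, at 558 and 282 in the controls and 434, 498 and 485 in the knockouts, was 1.67-fold higher without wild-type replicate 1 (unadjusted P = 0.00084, limma), and its ratio was 0.845 without replicate 2. Col9a2, described next, was called lower without wild-type replicate 2 (log2 -0.65, unadjusted P = 0.0149, limma).

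Col9a2 was at 156 and 119 in the inducible wild type and at 94.2, 109 and 93.5 in the knockouts, with all knockouts lower (log2 -0.46, SE 0.17, unadjusted P = 0.0305, limma). Col9a1 was at 18.7 and 17.1 in the wild type and at 11.6, 13.9 and 13.8 in the knockouts, and Col9a3 overlapped. Col6a1 and Col6a2 had log2 fold changes of 0.01 (SE 0.19) and -0.08 (SE 0.14), and Col12a1 one of -0.07 (SE 0.21). Col26a1 and Col23a1 stood at 0.03 (SE 0.13) and 0.17 (SE 0.17).

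Of the basement membrane chains, Col4a6 was at 460 and 396 in the inducible wild type and at 321, 353 and 255 in the knockouts. Col4a5 was at 1110 and 1131 in the wild type and at 1047, 976 and 716 in the knockouts. All knockouts were lower in both, with log2 fold changes of -0.47 (SE 0.15, unadjusted P = 0.0156) and -0.31 (SE 0.15, unadjusted P = 0.0745) in limma. Both genes are X-linked, and the Y-linked gene Kdm5d was at 0 in both control libraries and at 1350, 1259 and 1386 in the knockouts. Sex and genotype therefore cannot be told apart for any chain of the inducible comparison. In the germline comparison Kdm5d was at 485, 1.63 and 1442 in the wild type and at 0.52, 0 and 398 in the knockouts. Sex was thus not balanced between the germline groups either, and its part in the Col4a5 and Col4a6 values was not tested. Col4a1, Col4a2 and Col18a1 stood at log2 fold changes of -0.02 (SE 0.16), 0.06 (SE 0.19) and -0.02 (SE 0.05) in the inducible comparison.

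**Figure D4:**
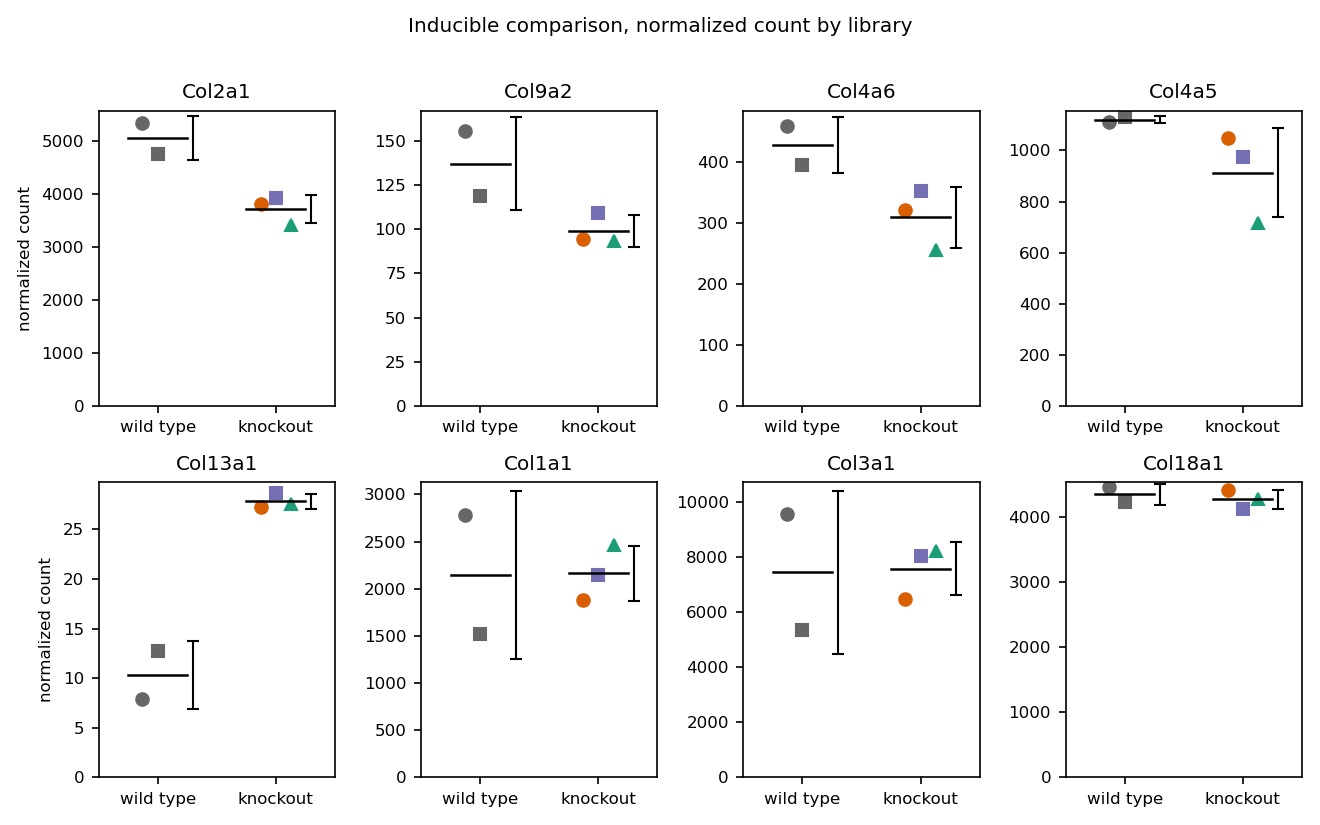
Normalized counts of 8 chains in the 5 inducible libraries on axes from 0, with circles, squares and triangles for replicates 1, 2 and 3, a line at each group's mean and bars of 1 SD (n = 2 wild type, n = 3 knockout). All knockouts lie below both controls for Col2a1, Col9a2, Col4a6 and Col4a5 and above them for Col13a1, and between them for Col1a1 and Col3a1.

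Chains that build the same molecule can be set against each other inside a library, where the scaling between libraries drops out. Col4a2 and Col4a1 kept a nearly fixed proportion. The log2 ratio was -0.71, -0.62 and -0.65 in the germline controls, against -0.49, -0.48 and -0.73 in the knockouts, a range of 0.25 while each chain ranged over 2.6. The 2 chains share a fixed partnership in the type IV trimer and the head-to-head start given above. The part of either in the ratio was not tested. Col1a2 and Col1a1 also kept in step, with log2 ratios from 0.18 to 0.66, a range of 0.48, while the chains ranged over 7.4 and 7.8. Col5a2 with Col5a1, Col4a6 with Col4a5 and Col6a2 with Col6a1 had ratio ranges of 0.73, 0.42 and 1.34, each below the range of either chain. Chains that are not partners were not compared in this way, so keeping in step is not shown to be particular to partners. Col6a3 over Col6a1 was 1.06, 1.55 and 1.22 in the controls, against 1.47, -0.27 and 1.29 in the knockouts, a range of 1.83 while the chains ranged over 7.30 and 5.56. The type IX pairs parted further than their chains, with a range of 3.30 for Col9a2 over Col9a1 and 4.95 for Col9a3 over Col9a1. Col9a3 over Col9a1 ran from 2.84 to 3.26 in the wild type and was at -0.80, 4.15 and 1.54 in knockout replicates 1, 2 and 3.

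Of 11 germline pairs compared, none had groups that did not overlap, and the smallest exact permutation p was 0.2, for Col8a2 over Col8a1. For the inducible libraries, 10 pairs were compared. Col11a1 over Col2a1 was -1.65 and -1.67 in the controls, against -1.34, -1.30 and -1.27 in the knockouts. All knockouts were higher, by 0.35 on the log2 scale (exact permutation p = 0.1, adjusted over the pairs 0.5). Col6a3 over Col6a1 was 1.01 and 0.68 in the controls, against 1.08, 1.15 and 1.02 in the knockouts, all higher as well (exact permutation p = 0.1, adjusted 0.5). The design cannot give a smaller p.

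**Figure D5:**
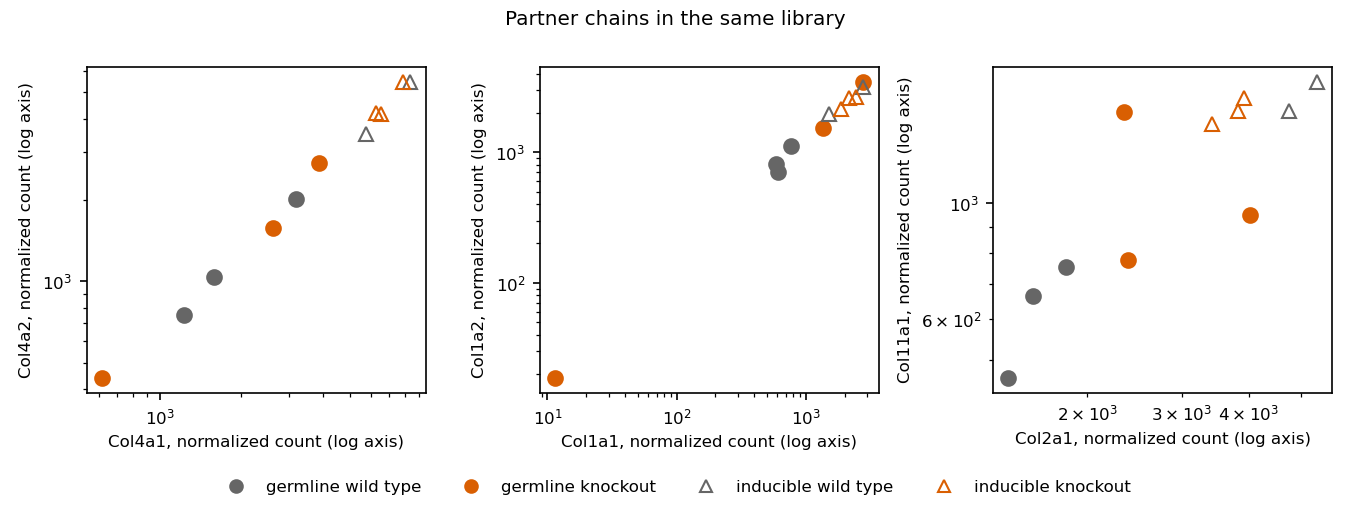
Normalized counts of 3 pairs of partner chains in the same library on log axes, with filled circles for germline and open triangles for inducible libraries, grey for wild type and orange for knockout. Col4a1 with Col4a2 and Col1a1 with Col1a2 lie along a line down to the lowest library, germline knockout replicate 2, and Col2a1 with Col11a1 scatters.

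The genes that make, trim, bind and break down collagen were counted in lists. Of 19 synthesis and folding genes tested in the germline comparison, 5 were higher and none lower, where 2.07% of all genes were called higher and 0.667% lower. Their median log2 fold change was 0.37, against -0.04 over all genes. P4ha1, a prolyl 4-hydroxylase subunit that stabilizes the triple helix, was at 585, 651 and 626 in the wild type and at 2974, 4481 and 744 in the knockouts. P4ha2, its relative, was at 39.5, 39.4 and 41.7 in the wild type and at 552, 1327 and 65.3 in the knockouts. Plod2, a lysyl hydroxylase, was at 593, 505 and 589 in the wild type and at 2476, 1904 and 604 in the knockouts. In all 3 genes knockout replicates 1 and 2 were the 2 highest libraries, and replicate 3 lay far below them and above the controls. P3h3, a prolyl 3-hydroxylase, and Colgalt2, a collagen galactosyltransferase, were the other two called, at log2 fold changes of 0.79 and 1.60.

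Of 20 hypoxia and glycolysis genes 15 were also higher in the germline knockouts, against 2.07% of all genes. The list summed to 118291 and 163258 in replicates 1 and 2, 53663 in replicate 3 and 46719 to 48588 in the wild type. The part of that state in the hydroxylase values was not tested.

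The same share of 2.07% holds for the counts that follow. Of 13 cleavage and cross-linking genes 2 were higher and none lower, namely Tll2, a propeptide-cleaving protease, and Loxl2, a lysyl oxidase, at log2 fold changes of 0.88 and 1.77. Of 8 receptor genes Mrc2, an endocytic collagen receptor, was higher, at 0.82. Of 12 tested basement membrane partners 3 were higher, which were the laminin chains Lama5 at 1.25 and Lamb2 at 0.62 and Hspg2, or perlecan, at 0.71. Of 12 fibril partners Fn1, or fibronectin, at 0.59 and Fbn1, or fibrillin, at 0.86 were higher. None of the 9 degradation genes tested was called in either direction. The median log2 fold changes of these lists, in the order given, were 0.21, -0.07, 0.19, 0.10 and -0.19, against -0.04 over all genes. Only 2 of the 8 receptor genes and 4 of the 9 degradation genes had a positive value. Without knockout replicate 2, where 4.16% of all genes were called higher, the counts rose to 5 cleavage and cross-linking genes, 3 receptors, 5 basement membrane partners, 4 fibril partners and 1 degradation gene. The synthesis and folding count was 5 there as well, and no gene of the 6 lists was lower.

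In the inducible comparison these lists held 1 called gene, where 0.802% of all genes were called higher and 0.49% lower. Tll2 was at 60.1 and 61.8 in the wild type and at 24.2, 36.1 and 38.1 in the knockouts, lower in all 3 (log2 -0.90, SE 0.25, unadjusted P = 0.00868, adjusted p = 0.765, limma with Benjamini-Hochberg). P4ha1, P4ha2 and Plod2 had log2 fold changes of -0.11 (SE 0.08), 0.03 (SE 0.16) and -0.13 (SE 0.09). The medians of the 6 lists ran from -0.14 to 0.09.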

How the data were processed

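Poly(A) RNA of 11 libraries was sequenced on an Illumina HiSeq instrument. Reads were mapped by the authors with TopHat (version 1.2.0 in the submitters' processing notes) to mm9, counted on RefSeq exons and scaled with edgeR's TMM factors. Each table's deposited signal is such a normalized count per gene, without the length scaling and log2 step of the methods. As values are fractional, count models were not used, and the reads behind a value are unknown. TMM takes most genes as unchanged.

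Each table was fitted alone with limma 3.58.1 under R 4.3.3 (lmFit, eBayes with trend, two-sided). Fits used log2 values with 1 added, over genes with a mean of at least 10. They were checked on simulated data with the same spread for all genes and no outlying library. That check does not cover a library like germline knockout replicate 2. A gene is called, higher or lower, at the study's thresholds of 1.5-fold and an unadjusted P of 0.05; adjusted p is Benjamini-Hochberg over all genes tested. The added 1 understates fold changes of low genes. Lengths are exon unions of GENCODE M1 on mm9, and per-length values took a pseudocount of 0.1. Single values used exact permutation tests. Chains were named when called in a comparison, when among the 3 highest of a class per length, or when in a partner pair. The members and lists were chosen with earlier results of these data known. Python 3.11.15 with scipy 1.17.1 made the tables. Alternatives were other pseudocounts, filters and normalizations, values per length, a replicate block and each library left out.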

Additional observations from a re-analysis of the deposited data

Results flagged for a closer look

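In 6 of the 35 chains tested in both comparisons, the knockout libraries lay on opposite sides of their wild-type means. In these chains every germline knockout library was on one side and every inducible knockout library on the other. How many of all genes do so was not counted. For Col2a1 the log2 fold change was 0.81 with the germline and -0.44 with the inducible knockout, and for Col11a1 it was 0.75 and -0.090. It was 0.39 and -0.31 for Col4a5, 0.40 and -0.47 for Col4a6, 0.41 and -0.46 for Col9a2, and -0.32 and 0.41 for Col4a4, the last from under 27 normalized counts in every library. Some single libraries lay near their wild-type mean, such as inducible knockout replicate 2 for Col11a1 at log2 -0.0074. Germline knockout replicate 3 was at 0.062 for Col4a5, and replicate 1 at -0.047 for Col4a4. The difference between the comparisons was not tested, since the tables were normalized apart and the comparisons differ in allele and controls. The choroid plexus and hem markers also had medians of opposite sign, 0.58 and -0.50, and their part was not tested. In the inducible comparison all 3 knockouts and neither control expressed Kdm5d, a Y-linked gene. Sex and genotype therefore cannot be told apart there for any of these 6 chains. In the germline comparison Kdm5d was high in wild-type replicates 1 and 3 but only in knockout replicate 3. The part of sex in the germline values was not tested.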

How the results depend on the processing

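Leaving out 1 library moved the germline count of chains called higher between 1 and 21 and that called lower between 0 and 2. The counts of 1 came without wild-type replicate 1 or knockout replicate 1 and that of 21 without knockout replicate 2. The class medians (log2) then ran from 0.21 to 0.99 (fibrillar), -0.46 to 0.49 (basement membrane) and -0.05 to 1.00 (others). In the inducible comparison the counts ran from 1 to 2 higher and 0 to 1 lower, and the medians from -0.23 to 0.065, -0.29 to 0.018 and -0.20 to 0.27. Chains whose value was negative with all libraries and that were called higher without germline knockout replicate 2 ranged over -2.32 to 1.58 (Col1a1), -2.30 to 1.43 (Col1a2), -4.39 to 1.22 (Col3a1), -1.50 to 1.28 (Col6a1), -1.07 to 1.12 (Col6a2), -2.28 to 1.37 (Col6a3), -1.57 to 1.67 (Col8a2) and -0.82 to 0.77 (Col23a1).

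With a minimum of 50 normalized counts, which drops Col13a1 and Col24a1, 0 inducible chains were called higher (3 at an unadjusted P of at most 0.05 in limma), and the basement membrane median was -0.12. With it 3 germline chains were called higher, and the germline median of the other chains turned from 0.14 to -0.12. With all libraries kept, no called chain changed direction. Of named chains that were not called, the sign changed in 20 germline and 29 inducible fits with a library left out and in 1 and 6 of the others; the cause was not tested. Quantile normalization called 6 germline chains higher (Col8a1 and Col9a1 added), a fit with no trend 3 (Col20a1 in place of Col11a1 and Col12a1) and values per kilobase 3 (without Col12a1).

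With the replicate block 4 germline chains were called, with Col8a1 in place of Col11a1, and the inducible basement membrane median was -0.12. Whether the numbers pair the libraries is not known. Deviations of same-numbered libraries correlated at -0.12, 0.31 and 0.25 in the germline and -0.35 and -0.05 in the inducible table. Not every germline library correlated best with its own number, though the knockouts at 0.31 and 0.25 did. In the inducible table the deviations of the wild-type libraries mirror each other, so these correlations cannot decide the question. Read depth is unknown, so values under 3 normalized counts were given no order.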
